A study of Mus musculus with 32 samples.

Results

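Livers of mice fed cdHFD, a high-fat diet without choline and with little methionine that is used to bring on steatohepatitis, were set against livers of chow-fed mice at ZT2, early in the light phase (zeitgeber time counts hours from lights on). Every library labelled with that time was used, 8 of the 32 in the series. All 32 were polyadenylated RNA libraries of wild type liver, from mice kept for 2 weeks on cdHFD or on chow and collected at ZT2, ZT8, ZT14 or ZT20, with 4 libraries for each diet and time. At ZT2, replicates 1 and 2 were male and replicates 3 and 4 female in both diets. The same held at the other times, except that replicate 3 of cdHFD at ZT14 was male. The questions were which genes differed between the diets at ZT2, which of these differences departed from those at the other 3 times, and how far the 4 cdHFD livers of ZT2 differed among themselves in their clock genes.

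Total counts were 32.5 M to 34.0 M in the chow libraries of ZT2 and 36.0 M to 43.7 M in the cdHFD libraries, within 29.5 M to 54.6 M over the series. Albumin mRNA took 4.41% to 9.60% of the counts of each ZT2 library, so the liver label held, and Xist and Ddx3y matched the labelled sex in all 8. Clock genes of the cdHFD livers did not always match the labelled time. Both cdHFD females of ZT2 lay nearer the chow livers of ZT8 than those of ZT2, so clock results are given below with and without them. Of the other 12 cdHFD livers 7 were also nearest the chow livers of another time, against none of the 16 chow livers. The chow libraries of ZT2 held more ribosomal RNA. Levels are given as CPM, counts scaled to a common library size. The CPM of the ribosomal RNA CT010467.1 were 3097, 11190, 8810 and 1883 in chow replicates 1 to 4, against 280.4, 453, 520 and 923 in cdHFD, so the diets did not overlap. Models with its level as a covariate were added once the values were known, and their counts and lost calls are given with the results below. The labels do not say that each replicate is a separate mouse, so the p-values speak only of the variation among the libraries at hand.

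The liver clock is a loop of transcription factors. BMAL1 (gene Arntl) pairs with CLOCK or NPAS2 and turns on genes through E-box motifs, among them the Per and Cry repressors, the REV-ERB receptors Nr1d1 and Nr1d2, and the PAR bZIP factors Dbp, Tef and Hlf. The PER and CRY proteins then block BMAL1, REV-ERBs repress Arntl and Npas2, and DBP and its relatives act through D-box motifs, where NFIL3 opposes them. In mouse liver, Arntl mRNA is high around lights on and Dbp mRNA in the later light phase, and feeding times and the light cycle both set the phase.

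The 4 cdHFD livers of ZT2 differed among themselves in clock mRNAs more than the livers of any other group. Over the 21 clock genes, the median standard deviation (SD) of log2(CPM + 0.5) among the 4 livers was 1.20, against 0.25 to 0.44 in the other 7 groups of 4. Over all 17853 genes tested, the median SD among the same 4 cdHFD livers was 0.25, and among the chow livers of ZT2 it was 0.34. An SD above 1 was found for 12 of the 21 clock genes in cdHFD at ZT2, against 0.795% of all genes there. For 15 of the 21 clock genes the SD was larger in this group than in the other 7, which was so for 13.7% of all genes. These SDs are a description, since the members were chosen with earlier results in view. The smallest SDs were those of Hlf at 0.27, Rora at 0.36 and Cry2 at 0.41.

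**Figure D1:**
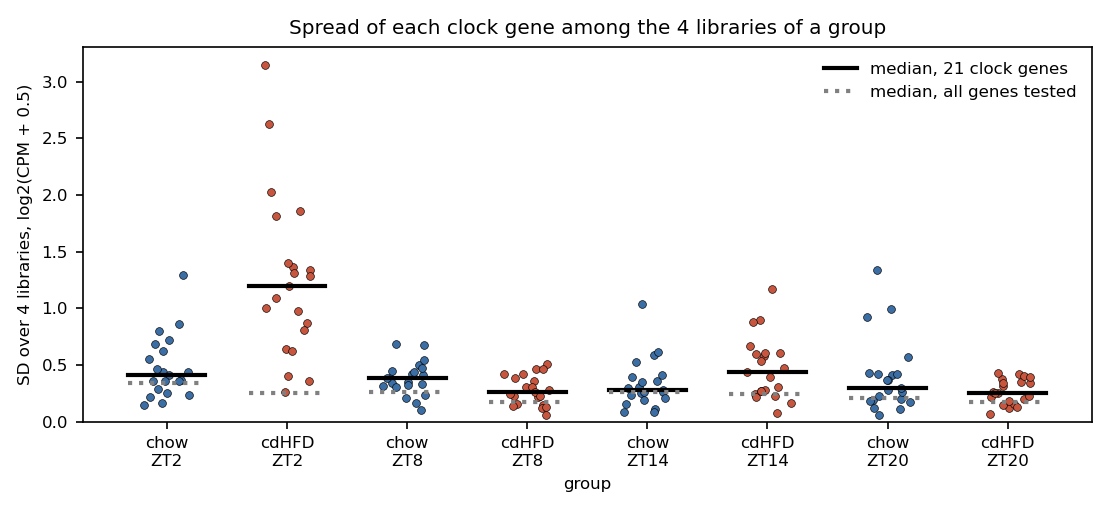
SD of each of the 21 clock genes over the 4 libraries of a group, on the log2(CPM + 0.5) scale, for the 8 groups of diet and time (points); black lines are medians over the clock genes and dotted grey lines medians over all genes tested. The clock median in cdHFD at ZT2 is 1.20, while the other 7 groups have clock medians of 0.25 to 0.44.

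Dbp, which encodes a PAR bZIP activator of D-box genes, spread the most. Its level was 1.75, 3.44, 76.4 and 191 CPM in cdHFD replicates 1 to 4, a 109-fold range, against 0.588, 0.992, 1.47 and 0.859 CPM in chow. The diets did not overlap, and the female livers lay far above the male ones in cdHFD. Nr1d1, which encodes the repressor REV-ERBα, was at 1.96, 30.2, 90.8 and 145 CPM in cdHFD and at 9.79, 8.47, 5.03 and 22.9 CPM in chow. Here cdHFD replicate 1 lay below every chow liver and the other 3 lay above them all, so that the groups overlapped.

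Arntl, the gene of BMAL1, ran the other way, with 26.8, 17.8, 4.41 and 1.25 CPM in cdHFD against 24.7, 18.6, 25.2 and 28.5 CPM in chow. The cdHFD males were close to the range of the chow livers, and the cdHFD females were below it. Npas2, a partner of BMAL1, was at 10.3, 4.70, 1.83 and 0.781 CPM in cdHFD and at 12.0, 14.3, 16.3 and 17.1 CPM in chow, with no overlap. Nfil3, the D-box repressor, was at 39.9, 38.4, 12.0 and 10.9 CPM in cdHFD and at 51.7, 76.2, 56.6 and 87.7 CPM in chow, again with no overlap and with the females lowest.

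Per3, a period gene, was at 2.2, 1.80, 16.3 and 39.9 CPM in cdHFD and at 2.52, 2.75, 5.31 and 1.53 CPM in chow. Both cdHFD males lay inside the chow range and both females above it. The same held for Ciart, a repressor of CLOCK and BMAL1, at 0.647, 0.731, 3.39 and 17.5 CPM in cdHFD and 0.588, 1.79, 1.79 and 0.262 CPM in chow. Per1 was at 10.4, 32.5, 35.8 and 81.9 CPM in cdHFD and at 5.57, 10.9, 11.2 and 8.18 CPM in chow, so only replicate 1 lay among the chow livers. Wee1, a cell cycle kinase under clock control, was at 11.6, 3.26, 12.1 and 7.64 CPM in cdHFD and at 1.87, 1.30, 2.80 and 2.09 CPM in chow. Its cdHFD values did not overlap those of chow and did not follow sex.

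**Figure D2:**
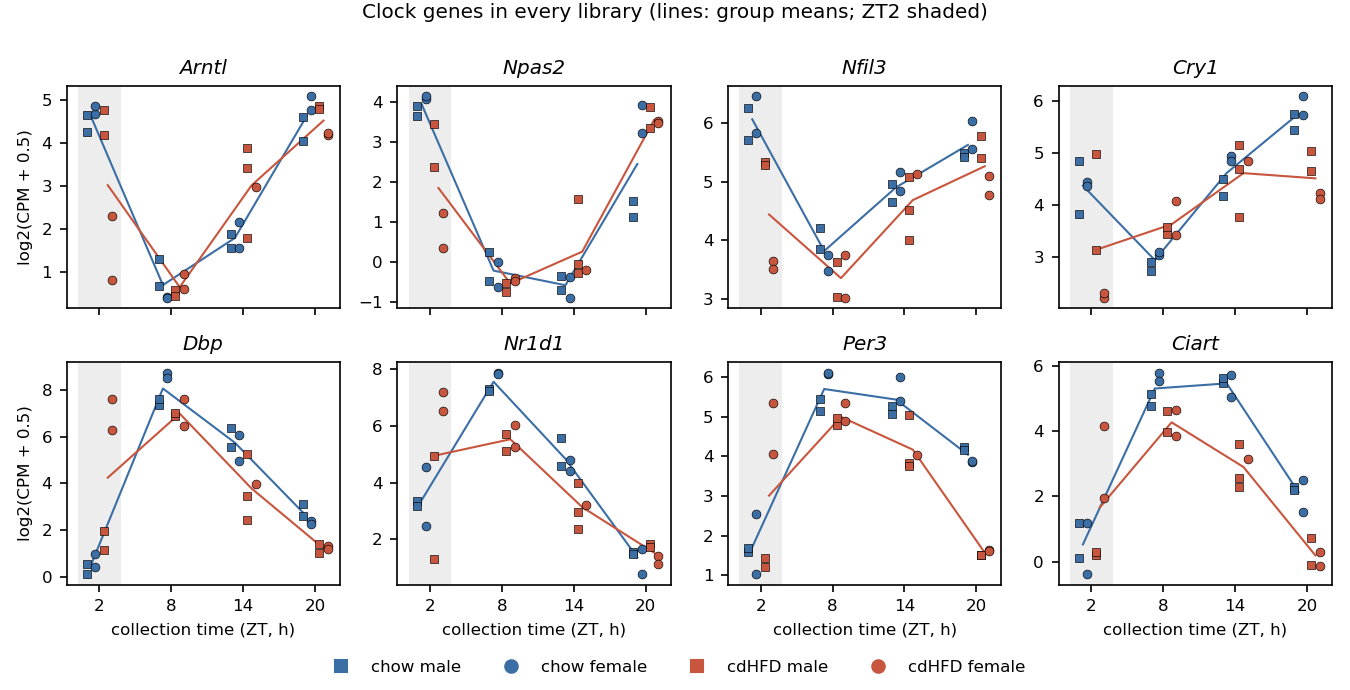
Level of 8 clock genes in all 32 libraries, as log2(CPM + 0.5) against collection time in hours; squares are males, circles females, lines join group means and ZT2 is shaded. At ZT2 the cdHFD females are low in Arntl (4.41 and 1.25 CPM) and high in Dbp (76.4 and 191 CPM), while the cdHFD males lie nearer the chow livers.

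Over the 21 clock genes together, each chow liver of ZT2 was nearest the mean of the other chow livers of ZT2, at a root mean square distance of 0.45 to 0.81 on the log2 scale. Among the cdHFD livers, replicate 1 (0.86) and replicate 2 (1.13) were also nearest chow ZT2. Replicate 3 was nearest chow ZT8, at 1.43 against 2.27 from chow ZT2. Replicate 4 was nearest chow ZT8 as well, at 0.73 against 2.90 from chow ZT2. Correlations with the chow ZT8 mean over the same genes, each gene centred on its mean over the chow times, were -0.77, -0.29, 0.69 and 0.94 in cdHFD replicates 1 to 4. They share the 21 genes and the chow libraries, and carry no test.

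**Figure D3:**
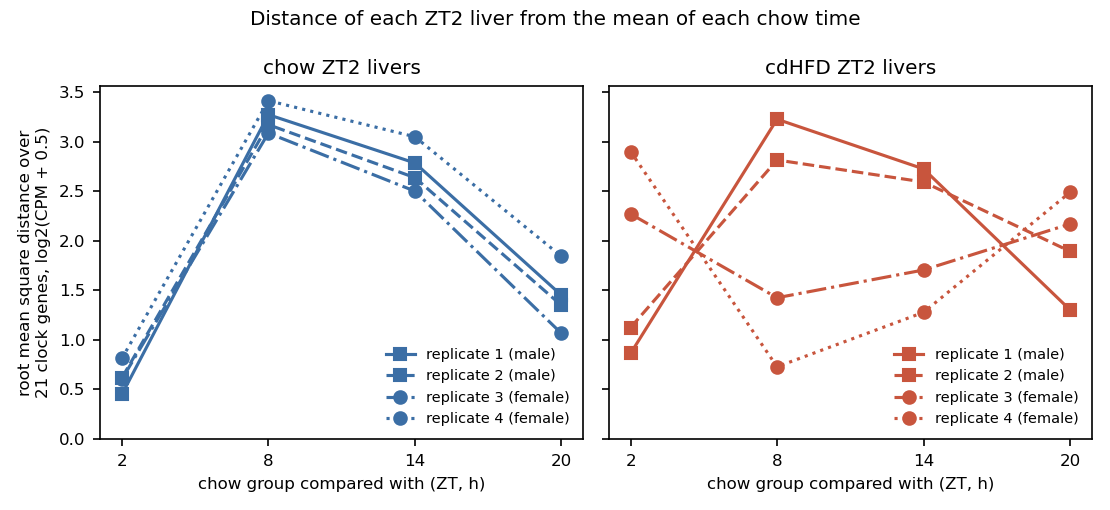
Root mean square distance over the 21 clock genes, on the log2(CPM + 0.5) scale, of each ZT2 liver from the mean of each chow group, against the time of that group in hours; a chow liver of ZT2 is compared with the other 3 of its group. All 4 chow livers are closest at ZT2, as are cdHFD replicates 1 and 2, while replicates 3 and 4 are closest at ZT8.

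Livers of the other cdHFD groups also lay away from their own time. All 4 cdHFD livers of ZT20 were nearest chow ZT2, at clock distances of 0.77 to 0.94 against 1.39 to 1.57 from chow ZT20. Of the cdHFD livers of ZT14, replicates 1 and 3 were nearest chow ZT20, and of those of ZT8, replicate 4 was nearest chow ZT14.

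Against the cdHFD groups, replicate 1 was nearest cdHFD ZT20, at a clock distance of 0.33 against 2.04 from the other cdHFD livers of ZT2, and replicate 4 was nearest cdHFD ZT8, at 0.73. Replicate 2 was nearest cdHFD ZT20 at 1.11, and replicate 3 nearest the other livers of its own group at 1.06. Over all genes tested, replicates 2 and 3 were nearest the other cdHFD livers of ZT2, at 0.30 and 0.34. Replicate 1 was nearest cdHFD ZT20 at 0.32 and replicate 4 nearest cdHFD ZT14 at 0.44. Liver 1 of cdHFD thus lay closest to cdHFD ZT20 in its clock genes and over all genes. Liver 4 lay closest to ZT8 in its clock genes but to ZT14 over all genes. Over all genes, some chow livers lay closest to another labelled time too. Replicate 4 of chow ZT2 was 0.61 from the other chow livers of ZT2 and 0.50 from chow ZT20. For replicate 1 of chow ZT2 these distances were 0.485 and 0.483.

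Sex and the split of the cdHFD livers by nearest chow time coincided, with 2 libraries on each side. Sex, other differences between these livers and a mix-up of collection times therefore cannot be told apart. Not every clock gene split by sex. In Nr1d1 and Per1, replicate 1 stood apart from replicates 2 to 4. So it did in Nr1d2 (8.84, 30.4, 78.6 and 57.4 CPM in cdHFD replicates 1 to 4) and Cry1 (31.0, 8.27, 4.10 and 4.45 CPM). In a model with a term for each group and sex, added once these values were known, the diet effect at ZT2 differed between females and males for 172 genes (0.963% of those tested; edgeR's quasi-likelihood test, adjusted p below 0.05). Of these, 5 were clock genes. The female minus male difference of the diet effect was 5.12 for Dbp (adjusted p = 0.0317, edgeR's quasi-likelihood test), 3.4 for Per3 (0.00769), 2.86 for Tef (0.00175), -1.94 for Nfil3 (0.0327) and -3.25 for Arntl (0.0187), on the log2 scale. Within cdHFD, females and males differed for 81 genes (0.454%). At ZT8 the test of the diet effect by sex called 27 of the 17853 genes tested and at ZT20 it called 32. None of the 21 clock genes was among them. At ZT14, where replicates 1 to 3 of cdHFD were male and replicate 4 female, the test was not run. The 2 female cdHFD livers differed from each other by a median of 0.70 (absolute log2 difference over the clock genes) and the 2 males by 0.58, against 0.53 and 0.40 in the chow females and males.

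Short stretches of promoter are shown for 4 clock genes, to give the motif letters through which the clock acts in genes that spread among these livers. They come from the RefSeq promoter table of GRCm38.p6, at the first start listed for each gene, with the motif in capitals, 5′ to 3′ on the strand of the gene.
Per1 E-box, chr11:69098758-69098813, plus strand: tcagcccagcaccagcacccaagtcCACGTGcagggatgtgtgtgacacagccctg
Ciart E-box, chr3:95882314-95882369, minus strand: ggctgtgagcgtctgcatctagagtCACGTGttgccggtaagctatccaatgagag
Cry1 E-box, chr10:85185084-85185139, minus strand: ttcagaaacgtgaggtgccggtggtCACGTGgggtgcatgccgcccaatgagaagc
Per3 D-box, chr4:151044838-151044895, minus strand: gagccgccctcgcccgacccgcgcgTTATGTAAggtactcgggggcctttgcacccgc
The 250 bases before the start were searched on both strands for the E-box CACGTG and the D-box TTATGNAA, where N is any base. Of the 21 clock genes 17 were in the table, and 5 of these held the E-box (29.4%), against 7.97% of the 12241 genes tested that were in the table. They were Per1, Cry1, Ciart, Bhlhe41 and Tef. The D-box was found in Per1 and Per3, 11.8% of the 17, against 2.06% of the genes tested. The REV-ERB motif, searched as TAGGTCA or TGGGTCA, was found in 1 of the 17 (5.88%), against 4.54% of the genes tested. Among the genes whose diet effect departed at ZT2, described below, the E-box was in 9.36% of the 299 upward and 7.53% of the 239 downward genes with a promoter in the table, near the share of all genes tested. A match describes letters in the window and not a bound site.

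Between the diets, 7446 of 17853 genes passed the threshold at ZT2 (41.7%; edgeR's quasi-likelihood test, adjusted p below 0.05), 3746 higher in cdHFD (21%) and 3700 lower (20.7%). The other times gave 7149 genes at ZT8 (40.0%; 20.6% higher and 19.4% lower), 6352 at ZT14 (35.6%; 19.8% and 15.8%) and 6972 at ZT20 (39.1%; 19.8% and 19.3%). At least a 2-fold change was reached by 2142 of the higher and 1673 of the lower genes at ZT2. Of the genes called at ZT2, 1918 higher and 1298 lower were called the same way at all 3 other times, and 908 higher and 1036 lower at none of them. Fewer were called in the opposite direction at another time, 92 of the higher and 91 of the lower genes. With the level of CT010467.1 as a covariate, 1563 higher and 1402 lower genes were called at ZT2. Scaling by total counts alone gave a median log2 change over all genes of 0.521 at ZT2, against 0.003, and 8627 higher and 1326 lower calls, so directions below are relative to the median gene.

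Among genes with at least 1 CPM and no overlap between the diets, the largest rises at ZT2 were those of Mmp12, Vmn2r3 and Gpnmb. Mmp12, a macrophage elastase, was at 102, 138, 193 and 100 CPM in cdHFD and below 0.4 CPM in every chow liver, a log2 change of 9.34 ± 0.54 (SE, n = 4 per diet; adjusted p = 1.64e-13, edgeR's quasi-likelihood test). Gpnmb, a membrane glycoprotein of lipid-laden macrophages, was at 69.8 to 161 CPM in cdHFD and 0.108 to 0.635 CPM in chow (log2 change 8.57). Lcn2, an iron-sequestering acute phase protein, reached 694 to 1290 CPM against 2.49 to 16.6 CPM (log2 change 7.08). Areg, a ligand of the EGF receptor, had no count in any chow liver of ZT2, and was at 3.51, 3.94, 11.0 and 9.75 CPM in cdHFD. Vmn2r3, a vomeronasal receptor gene, and Ly6d, Sprr1a, Nrg1, Ubd and Abcc12 made up the 10 largest, with log2 changes of 5.92 to 8.73, and all 10 rose at each other time too. In bulk liver RNA, a change in the number of cells of a type and a change in RNA per cell cannot be told apart.

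By the same rule, 8 of the 10 largest falls were of major urinary protein (Mup) genes, which are expressed mainly in male liver under growth hormone control, and the others were Hsd3b5 and the pseudogene Serpina4-ps1. Mup12 was at 4343, 10120, 221 and 172 CPM in chow replicates 1 to 4 and at 0.172, 0.576, 0 and 0 CPM in cdHFD. Hsd3b5, a steroid dehydrogenase, was at 247, 246, 0.969 and 6.31 CPM in chow and at 0.215, 0.244, 0.0181 and 0.0237 CPM in cdHFD. In both genes the chow males lay far above the chow females, and every cdHFD liver lay below every chow liver, as the rule requires. The chow males also lay above the chow females in Mup11, Mup15 and Mup17. Mup10 and Mup14 were instead highest in a chow female, at 1054 CPM in replicate 4 and 522 CPM in replicate 3, and Mup16 and Mup19 were mixed. The list of 14 major urinary proteins had 13 members lower at ZT2 and 13 at each other time. These genes are near copies of each other, so the share of reads given to each is uncertain.

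Clock repressor mRNAs were mostly higher in cdHFD at ZT2 and mostly lower or not called later. Of 10 clock repressors, 7 were higher in cdHFD at ZT2 and Cry2 was lower, with a median log2 change of 2.07, where all genes had 0.003. At ZT8 2 were lower, at ZT14 3 and at ZT20 7, none was higher at these times, and the medians were -0.50, -0.62 and -1.28. Of 6 clock output regulators, Dbp, Tef and Wee1 were higher and Hlf and Nfil3 lower at ZT2. Of 5 activators none was higher, Npas2 was lower, and Arntl, at a log2 change of -1.11 ± 0.59, was not called (adjusted p = 0.0896, edgeR's quasi-likelihood test). The lower level of Cry2, -0.48 on the log2 scale, was 0.05 when scaled by total counts alone, and Hlf (-0.14) and Npas2 (-1.25) were then no longer called. With CT010467.1 as a covariate the calls of Npas2, Cry2 and Bhlhe40 were lost, while Arntl (-2.65), Cry1 (-2.04) and Clock (-1.12) were called lower. With the GC trend of the library as a covariate Arntl (-1.88), Cry1 (-1.15) and Clock (-0.76) were called lower too. In a fit of the 8 ZT2 libraries alone, 8 of the 15 clock genes called at ZT2 were still called. Ciart, Nr1d1, Per3, Tef, Bhlhe40 and Cry2 were among those not called there. The groups did not overlap for 6 of the 21 clock genes, where 26.0% of all genes had no overlap at ZT2.

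Without both cdHFD females, a setting added once the values were known, fewer clock genes kept their diet effect. The log2 change at ZT2 of Dbp was 5.81 with all 4 livers and 1.42 without the females (adjusted p = 0.0767, edgeR's quasi-likelihood test). That of Nr1d1 was 2.43 and 0.50, and that of Bhlhe41, a repressor that binds E-boxes, was 3.05 and 1.32. Per3 went from 2.06 to -0.46, Ciart from 2.10 to -0.62 and Tef from 0.96 to -0.63, none of them called without the females. Npas2 (-0.79), Nfil3 (-0.78) and Bhlhe40 (0.66) were not called either. Per1 (2.07 and 1.42), Nr1d2 (2.49 and 1.25), Wee1 (2.08 and 1.94), Hlf (-0.67 and -0.57) and Cry2 (-0.48 and -0.81) stayed past the threshold, and Per2 was called lower (-1.34, against -0.33 with all 4). Without both males, Arntl (-3.05), Npas2 (-3.61), Cry1 (-2.33) and Clock (-0.84) were called lower and Usp2 higher, and Cry2 (-0.19) was not called.

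The diet effect at ZT2 departed from the mean diet effect of the other 3 times for 723 genes (4.05%; edgeR's quasi-likelihood test, adjusted p below 0.05), 389 upwards (2.18%) and 334 downwards (1.87%). The same contrast called 708 genes for ZT8 (3.97%), 57 for ZT14 (0.319%) and 57 for ZT20 (0.319%). Of the 389 upward genes, 235 were called higher in cdHFD at ZT2 itself, 8 lower and 146 not at all. Of the 334 downward genes, 228 were called lower, 13 higher and 93 not at all. Against single times, the diet effect at ZT2 differed for 1205 genes from ZT8 (6.75%), for 432 from ZT14 (2.42%) and for 38 from ZT20 (0.213%).

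Within each diet, ZT2 was set against the mean of the other times. It differed from that mean for 3993 genes within chow (22.4%), 2326 higher (13.0%) and 1667 lower (9.34%). The chow counts were 151 higher and 96 lower with CT010467.1 as a covariate, 805 and 486 without chow replicate 2, and 1082 and 645 without chow replicate 3. Within cdHFD 1 gene differed (0.00560%). That gene, Tcim, was named after its value was seen. At an unadjusted p below 0.05 the cdHFD contrast held 998 genes, and DESeq2 called 14 higher and 11 lower. The departure is the difference between the cdHFD and the chow contrast, so neither is independent of it. The clock repressors had a median of -1.93 in this chow contrast and of 0.01 in the cdHFD contrast, on the log2 scale.

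The number of genes particular to ZT2 rested on single libraries. Leaving out 1 chow liver of ZT2 gave 657 upward and 641 downward genes without replicate 1, 92 and 69 without replicate 2, 89 and 96 without replicate 3, and 1472 and 1255 without replicate 4. Leaving out 1 cdHFD liver gave 210 and 197 without replicate 1, 151 and 105 without replicate 2, 103 and 80 without replicate 3, and 1261 and 1357 without replicate 4. With CT010467.1 as a covariate, 27 upward and 19 downward genes were called. The genes also differed in base composition, with a median GC content of 47.5% over the upward, 53.4% over the downward and 49.4% over the other genes. With the GC trend of the library as a covariate, 233 upward and 172 downward genes were called.

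The 10 genes with the largest upward departure held 6 clock genes. Dbp led, with a diet effect of 5.81 ± 0.88 (SE) at ZT2 against -1.03, -1.61 and -1.63 at ZT8, ZT14 and ZT20, on the log2 scale. This SE pools the spread of all 32 libraries, while the SD of Dbp was 3.15 in cdHFD at ZT2 and 0.155 to 1.17 in the other groups. The departure of Dbp, 7.23 ± 1.02, was past the threshold (adjusted p = 0.00152, edgeR's quasi-likelihood test). It stayed so under every alternative that was run, at 2.89 without both cdHFD females and 8.45 without both males. Ciart (4.08), Nr1d1 (3.57), Per3 (3.54), Bhlhe41 (2.96) and Nr1d2 (2.88) followed. Without both females Ciart (1.40), Nr1d1 (1.67), Per3 (1.06) and Bhlhe41 (1.19) were no longer called, while Nr1d2 (1.65) was. When CT010467.1 was a covariate, the departures of Nr1d1 (3.82, adjusted p = 0.0754) and Nr1d2 (2.75, adjusted p = 0.0661) were not called (edgeR's quasi-likelihood test), and those of the other 4 were. Leaving out single livers ended the call of Nr1d1 and of Bhlhe41 in at least 1 case. Against ZT20 alone, the diet effects at ZT2 of Dbp and Per3 were called different. Those of Ciart, Nr1d2, Nr1d1 and Bhlhe41 were not (adjusted p = 0.0551, 0.0604, 0.342 and 0.342, edgeR's quasi-likelihood test).

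The other 4 were Ppp1r3g, C1rb, Abcc12 and Lpin1. Abcc12, an ABC transporter gene, was at 5.50, 6.12, 7.87 and 8.54 CPM in cdHFD and at 0.173, 0.0763, 0 and 0.0374 CPM in chow. The cdHFD livers lay together and far above the chow livers, and the diet effect of 5.92 compared with 2.75 to 3.61 at the other times. Its departure of 2.71 ± 0.45 (adjusted p = 0.00309, edgeR's quasi-likelihood test) was called under every alternative run, although the 4 chow libraries held 8 reads of it together. Against ZT20 alone, its diet effect at ZT2 was not called different (adjusted p = 0.0848, edgeR's quasi-likelihood test).

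Lpin1, which encodes a phosphatidate phosphatase and coactivator of fat oxidation genes, was at 10.5, 63.9, 49.0 and 81.1 CPM in cdHFD and at 26.4, 17.8, 11.1 and 29.6 CPM in chow. Replicate 1 of cdHFD lay below all chow livers and the other 3 above them. The diet effect was 1.27 ± 0.49 at ZT2, against -1.42, -1.0 and -1.70 at ZT8, ZT14 and ZT20. Ppp1r3g, a glycogen-targeting subunit of protein phosphatase 1, was at 0.215, 8.49, 9.69 and 26.8 CPM in cdHFD and at 0.0718 to 0.346 CPM in chow. As in Lpin1, replicate 1 stayed with the chow livers. C1rb, a complement protease gene, was at 4.33 CPM in cdHFD replicate 3 alone and at or below 0.259 CPM in the other 7 livers.

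Calls of these 3 genes were lost under some settings. The departure of Lpin1 was not called with CT010467.1 as a covariate (adjusted p = 0.109, edgeR's quasi-likelihood test), and its diet effect at ZT2 was called neither there (1.02) nor without both cdHFD females (0.75). The departures of Ppp1r3g and C1rb were called neither with the covariate (adjusted p = 0.241 and 0.298) nor without the females (0.0975 and 0.185, edgeR's quasi-likelihood test). Against ZT20 alone, the diet effect at ZT2 was called different for Lpin1 (0.0406) but not for Ppp1r3g (0.221) or C1rb (0.186, edgeR's quasi-likelihood test).

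**Figure D4:**
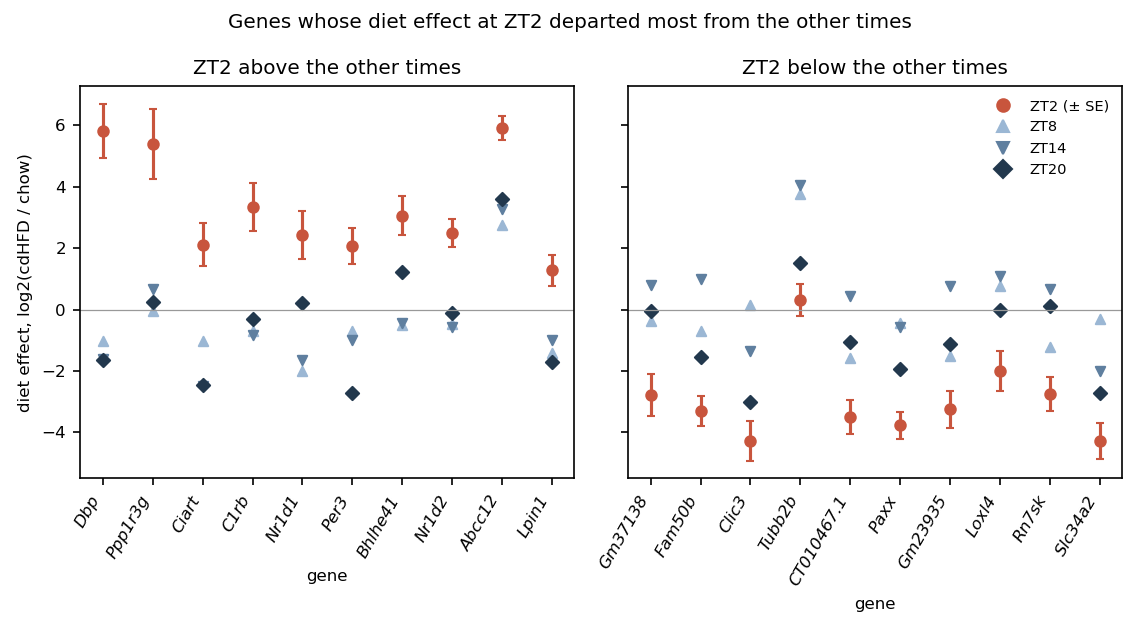
Diet effect, log2(cdHFD / chow), at ZT2 (circles with SE, 4 libraries per diet) and at ZT8, ZT14 and ZT20 for the 10 genes with the largest departure of ZT2 above and below the other times. Dbp stands at 5.81 at ZT2 and between -1.63 and -1.03 elsewhere, and Tubb2b at 0.30 against 1.5 to 4.06.

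Of the 10 genes with the largest downward departure, 9 were lower in every cdHFD liver of ZT2 than in every chow liver. Paxx, a factor of DNA end joining, was at 250, 332, 482 and 101 CPM in chow and at 22.6, 18.1, 16.4 and 28.4 CPM in cdHFD, with no overlap. Its diet effect was -3.77 ± 0.43 at ZT2 against -0.45, -0.58 and -1.93 later. Clic3, a chloride channel gene, was at 18.3, 16.9, 17.3 and 6.69 CPM in chow and 0.254 to 1.40 CPM in cdHFD. Clic3 (chr2:25456838-25458776) lies within Paxx (chr2:25455141-25461094) on the opposite strand, and since the libraries do not mark strand, their reads cannot be told apart.

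Slc34a2, a phosphate transporter gene, was at 7.50, 5.19, 15.9 and 22.0 CPM in chow and at 0.992, 0.288, 0.363 and 0.142 CPM in cdHFD at ZT2, and its diet effect was -4.28 against -0.30, -2.01 and -2.71 later. Loxl4, a lysyl oxidase of the matrix, was at 7.02, 7.25, 15.5 and 22.1 CPM in chow and at 6.29, 2.77, 1.16 and 0.875 CPM in cdHFD. In both genes the chow females were highest, and in Loxl4 the cdHFD females were lowest. Fam50b was at 0.784 to 1.91 CPM in chow and 0.0181 to 0.215 CPM in cdHFD. The ribosomal RNA CT010467.1, the 7SK RNA Rn7sk, Gm23935, annotated as a miRNA gene, and the unnamed Gm37138 were also among the 10.

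Most of these downward departures lost their call under some setting. With CT010467.1 as a covariate, Paxx (adjusted p = 0.271), Clic3 (0.358), Fam50b (0.326), Gm37138 (0.298), Loxl4 (0.089) and Slc34a2 (0.0799) were not called, and of the 7 genes with a value there Tubb2b alone was (edgeR's quasi-likelihood test). Without both cdHFD females Clic3, Fam50b, Gm37138, Loxl4 and Slc34a2 were not called, and without both males CT010467.1, Gm23935 and Rn7sk were not. Fam50b, Paxx and Tubb2b were called whichever 1 liver was left out, and the other 7 were not. Against ZT20 alone, the diet effect at ZT2 was not called different for any of these genes (adjusted p = 0.107 to 0.486, edgeR's quasi-likelihood test).

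Tubb2b, a beta tubulin, was the one that overlapped, with 20.9, 14.2, 8.90 and 15.5 CPM in cdHFD and 11.0, 13.7, 4.45 and 19.8 CPM in chow. The groups overlapped, and the diet effect of 0.30 ± 0.52 was not called at ZT2, while it was 3.76, 4.06 and 1.5 at ZT8, ZT14 and ZT20. Chow Tubb2b had means of 12.24 CPM at ZT2, 1.08 CPM at ZT8, 1.21 CPM at ZT14 and 10.75 CPM at ZT20. Its diet effect at ZT2 minus that at ZT20 was -1.20 and was not called (adjusted p = 0.387, edgeR's quasi-likelihood test). Of 10 tubulins, Tuba4a, Tubb2a, Tubb2b and Tubb4b departed downwards at ZT2 (40%, against 1.87% of all genes). The departures of Tuba4a and Tubb4b were not called with CT010467.1 as a covariate, nor was that of Tubb4b with the GC trend. Without both cdHFD females Tubb2b alone of these tubulins was called. Tuba4a itself fell in cdHFD at ZT2, by 1.93 on the log2 scale. Tubulin genes share long stretches of coding sequence, so reads may be split between copies.

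A stricter rule asked that the diet effect at ZT2 differ from each other time on its own, in the same direction. It held for 12 genes (0.0672%), Dbp, Per1, Per3, Tef, Wee1, Mknk2, Coq10b, Klf13 and Smad9 upwards and Chka, Tnfaip2 and Nkd1 downwards, named here after their values were seen. Chka, choline kinase alpha, which starts phosphatidylcholine synthesis from choline, was at 264, 183, 82.1 and 83.0 CPM in cdHFD and at 292, 417, 385 and 247 CPM in chow. The cdHFD females were lowest and replicate 1 lay within the chow range, and the diet effect of -1.18 at ZT2 stood against 0.97, 0.84 and 0.78 later. Klf13, a zinc finger factor, was at 25.1, 29.3, 29.9 and 34.6 CPM in cdHFD and at 13.4, 11.7, 17.5 and 17.6 CPM in chow, with close values within each diet. Its diet effect was 0.99 at ZT2 and -0.56, -0.69 and -0.35 later.

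Mknk2, a kinase of the translation factor eIF4E, was at 118, 213, 195 and 356 CPM in cdHFD and at 90.6, 108, 68.3 and 112 CPM in chow. Coq10b was at 16.1, 22.6, 50.0 and 50.8 CPM in cdHFD and at 24.9, 16.8, 11.8 and 18 CPM in chow, so that only the cdHFD females lay above chow. Smad9, a transducer of bone morphogenetic protein signals, was at 6.49 to 17.2 CPM in cdHFD and 2.12 to 4.93 CPM in chow. Nkd1, an inhibitor of Wnt signalling, was at 8.42 to 13.7 CPM in cdHFD and 15.4 to 22.8 CPM in chow. For Tnfaip2 the diet effect was -0.39 at ZT2 and 1.14, 0.68 and 0.83 later. Without both cdHFD females 1 upward and no downward gene met the rule, and without both males 28 and 19 did.

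Beyond the clock, 26 members of the other gene lists departed at ZT2, and few held under every setting. With CT010467.1 as a covariate 4 of the 26 were called, Pdk4, Stat5b, Tubb2a and Tubb2b, and with the GC trend 12 were. Without both cdHFD females 10 were called and without both males 12. Cpt1a, Lpin1, Nampt, Pdk4, Por, Rxra, Tubb2a and Tubb2b were called whichever 1 liver was left out, and the other 18 were not.

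Of 20 genes of the fasting response 4 departed at ZT2 (20%, against 4.05% of all genes), Cpt1a, Angptl4 and Foxo1 upwards and Pdk4 downwards. Of 22 genes of the fed response and fatty acid synthesis Lpin1 alone did (4.55%). Cpt1a, the carnitine palmitoyltransferase that lets fatty acids into mitochondria, was at 350 ± 25 CPM in cdHFD and 107 ± 31.5 CPM in chow (mean ± SD, n = 4), with no overlap. Its diet effect was 1.72 ± 0.21 at ZT2, against 0.07, -0.07 and 1.01 at ZT8, ZT14 and ZT20. Angptl4, an inhibitor of lipoprotein lipase, rose by 1.41 at ZT2 against -0.08 to 0.47 later. Pdk4, which holds back pyruvate oxidation, was at 30.6 ± 7.82 CPM and 27.4 ± 9.79 CPM at ZT2, a diet effect of 0.16, while it was 1.42 to 2.77 at the other times. Foxo1, a transcription factor of the fasting state, departed upwards too, by 0.68. Of the 20 fasting genes, 5 were higher and 1 lower at ZT2, and 3 higher and 8 lower at ZT8. The higher count at ZT2 was near the share of all genes, 21%.

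Fgf21, a hormone of the stressed and fasting liver, rose by 5.80 at ZT2 and by 4.85 to 7.48 later. Of the 22 genes of the fed response, 11 were lower and Lpin1 higher at ZT2. Fasn, fatty acid synthase, was at 120.5 ± 35.8 CPM in cdHFD and 910 ± 142 CPM in chow, a log2 change of -2.91 ± 0.28. Thrsp, a lipogenic regulator, changed by -4.06 and Elovl3, an elongase that is higher in male liver, by -6.6. Of 25 genes of cholesterol synthesis and uptake, 24 were lower at ZT2 and 24 at each other time. Mvd, mevalonate diphosphate decarboxylase, was at 6.13 ± 1.53 CPM against 109 ± 19.4 CPM and was the only one that departed at ZT2, by -1.08 ± 0.29 (adjusted p = 0.0268, edgeR's quasi-likelihood test).

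Nampt, the rate-limiting enzyme of NAD salvage and a clock target, was at 61.1 ± 13.0 CPM in cdHFD and 37.2 ± 9.70 CPM in chow, with no overlap. Its diet effect was 0.72 at ZT2 and 0.27, -0.78 and -0.79 later, a departure of 1.15 (adjusted p = 0.0014, edgeR's quasi-likelihood test). Of 20 xenobiotic genes, Por, the electron donor of cytochromes P450, and Rxra, the shared partner of many nuclear receptors, departed upwards by 1.35 and 0.84. The list had 2 higher and 7 lower members at ZT2 and 15 lower at ZT20, where 19.3% of all genes were lower. Stat5b, which carries growth hormone signals, fell by 0.65 at ZT2 and departed by -0.51. Among 20 bile acid genes 3 were higher and 12 lower at ZT2. Slco1a1, an organic anion uptake carrier, changed by -4.77 at ZT2 and by -4.89 to -4.63 later. Abcc4, an export pump, rose by 2.86 at ZT2 and by 2.21 to 2.38 later. Abcc3, another export pump, was the one that departed, by 0.61.

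Of 19 interferon-stimulated genes 6 departed downwards at ZT2 (31.6%, against 1.87% of all genes), Isg15, Irf9, Stat2, Oas2, Mx1 and Mx2. None of the 6 was called with CT010467.1 or the GC trend as a covariate or without both cdHFD males, and without both females Mx1 and Mx2 were. At ZT2 6 of the 19 were higher and 3 lower, with a median of 0.29, against 11 higher at ZT8, 15 at ZT14 and 10 at ZT20, with medians of 0.90, 1.48 and 0.68. Stat2, a subunit of the interferon-activated factor ISGF3, was at 79.0 ± 17.5 CPM in cdHFD and 171 ± 63.6 CPM in chow, a log2 change of -1.12, where the later times gave 0.10, -0.12 and -0.78. Mx1, an antiviral GTPase, was at 6.27 ± 1.89 CPM and 3.97 ± 1.66 CPM, and its diet effect of 0.67 was not called at ZT2, while it was 1.87 to 2.25 later. All 6 were at an adjusted p of 0.0226 to 0.0459 in the departure test (edgeR's quasi-likelihood test).

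Stress genes were mixed. Of 19 heat shock chaperones, none was higher and Fkbp4, Hsf1 and Stip1 were lower at ZT2, with a median of -0.002, while 11 were higher at ZT8 and 11 lower at ZT20. The lower count at ZT2 was under the share of all genes, 20.7%. No single chaperone departed at ZT2 from the mean of the other times. Of 18 chaperones of the endoplasmic reticulum 9 were lower at ZT2. Of 20 genes of the ATF4 response, which answers amino acid shortage and other stresses, 15 were higher and 2 lower at ZT2. Psat1, of serine synthesis, was at 15.2 ± 6.92 CPM against 0.766 ± 0.0914 CPM, and Trib3, a pseudokinase, at 87.9 ± 13.0 CPM against 6.6 ± 1.69 CPM. Trib3 rose by 3.72 at ZT2 and had a diet effect of 0.21 at ZT8, and its departure of 1.5 missed the threshold (adjusted p = 0.0533, edgeR's quasi-likelihood test).

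Cdkn1a, the cell cycle inhibitor p21, was at 74.8 ± 23.9 CPM in cdHFD and 18.7 ± 15.9 CPM in chow, with no overlap. Its log2 change of 2.09 at ZT2 was below the 4.98, 5.03 and 2.45 of the later times, a departure of -2.06 (adjusted p = 0.0231, edgeR's quasi-likelihood test). Bbc3, a proapoptotic p53 target, fell by 0.90 and departed downwards too. Of 14 p53 targets 10 were higher and 1 lower at ZT2. All 18 mitosis genes and 14 of 18 genes of DNA replication were higher. Plk1, a mitotic kinase, was at 10.2 ± 9.12 CPM against 1.08 ± 0.860 CPM.

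Most macrophage, neutrophil and matrix genes tested were higher in cdHFD at ZT2 and most hepatocyte genes lower. None of the cell type markers departed at ZT2 from the other times. Of 18 genes of lipid-associated macrophages 16 were higher and 1 lower, of 14 Kupffer cell genes 12 were higher, and so were the 7 of 13 neutrophil genes that passed the filter on low counts. The sum of the lipid-associated macrophage genes ran the other way, at 42770 to 61250 CPM in chow and 27530 to 43290 CPM in cdHFD. By group means, the Kupffer cell genes summed to 843 CPM in chow and 2009 CPM in cdHFD. The neutrophil genes summed to 6.29 to 23.3 CPM in the chow livers and to 716 to 1316 CPM in the cdHFD livers. Most of the cdHFD sum was Lcn2, named above as an acute phase protein. By group means, Lcn2 held 951 of 974 CPM in cdHFD and 8.66 of 16.1 CPM in chow. Trem2, a lipid receptor of macrophages, was at 40.5 ± 3.79 CPM against 0.934 ± 0.569 CPM. Of 24 genes of stellate cells and matrix 18 were higher, with a median of 1.17 at ZT2 and 1.62 to 1.92 later. Col1a1, type I collagen, was at 136 ± 3.36 CPM against 30.6 ± 24.7 CPM. Of 9 bile duct markers 3 were higher and 1 lower, and of 12 endothelial markers 2 were higher and 2 lower. Of 15 T and NK cell markers Gzma and Prf1 were higher, and of 9 B cell markers Jchain was lower. The endothelial, T and NK and B cell counts were under the shares of all genes, 21% higher and 20.7% lower. Of 19 hepatocyte identity genes 13 were lower and none higher, and they summed to 59090 to 70670 CPM in cdHFD and to 143200 to 187400 CPM in chow. The part of cell composition in the other results was not tested.

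Most chemokines, cytokines and immediate early genes tested were higher in cdHFD at ZT2, and most respiratory chain genes tested, nuclear and mitochondrially encoded, were lower. Of 19 chemokines and cytokines 17 were higher, as at each other time, and of 17 immediate early genes 14 were. Of 24 acute phase genes 11 were higher and 4 lower, and Steap4, a metalloreductase, rose by 3.05 and departed by 1.28. Of 13 genes of the growth hormone axis 2 were higher and 8 lower, and of 17 genes of NAD metabolism 2 were higher and 10 lower. Of 21 nuclear genes of the respiratory chain 13 were lower, and of 13 mitochondrially encoded genes 12 were. Of 14 glucocorticoid-responsive genes 5 were higher and 1 lower, and Errfi1, an inhibitor of the EGF receptor, departed by 1.29. Of 27 ribosomal protein genes 5 were higher, and of 19 genes of ribosome biogenesis 6 were higher and 1 lower. Over all genes tested, 21% were higher and 20.7% lower at ZT2, so the ribosomal protein count was not above the share of all genes. With CT010467.1 as a covariate, the diet effects at ZT2 of Angptl4, Nampt, Por, Cdkn1a, Plk1, Col1a1, Prf1, Jchain, Fkbp4, Hsf1, Stip1, Stat2, Irf9 and Mx2 were no longer called.

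**Figure D5:**
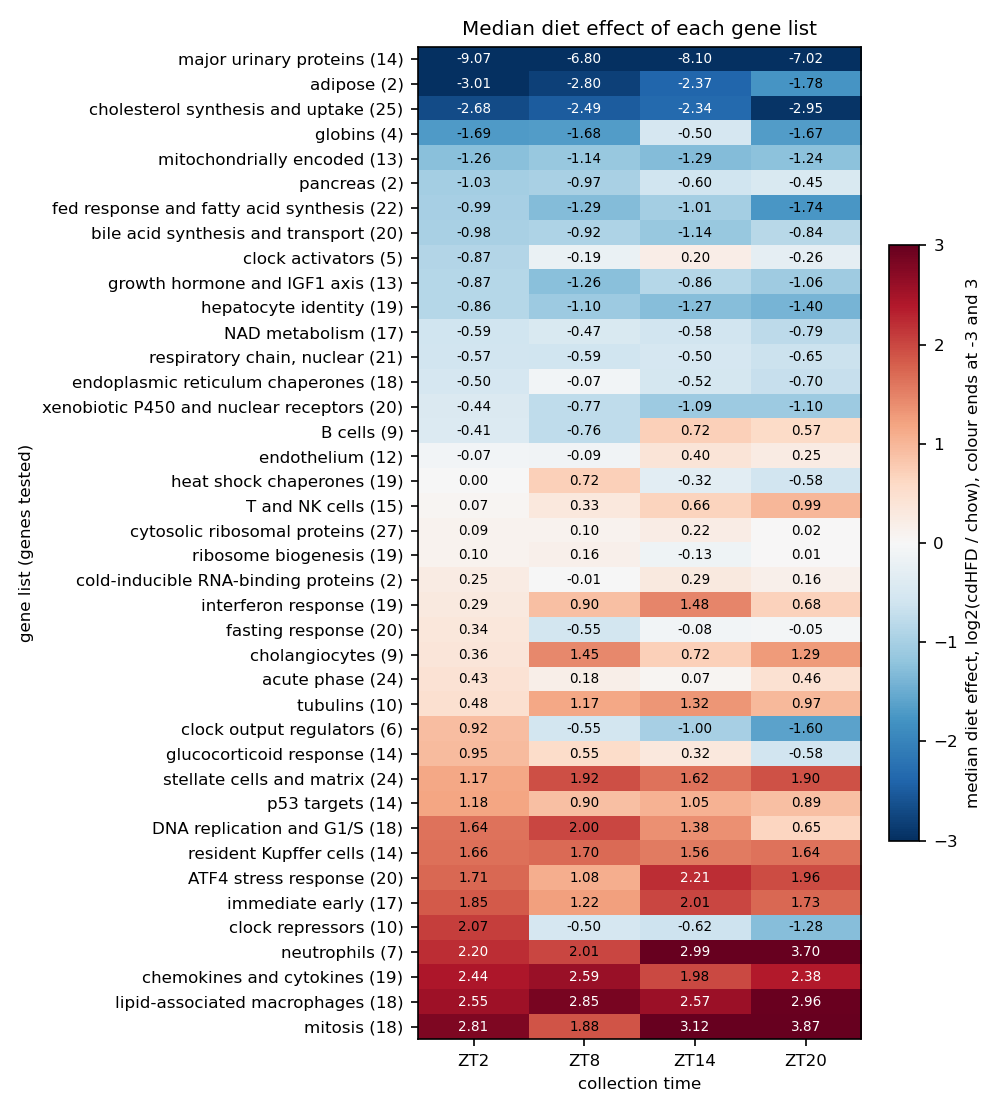
Median diet effect, log2(cdHFD / chow), of each of the 40 gene lists at the 4 collection times, ordered by the ZT2 median, with the number of genes tested in brackets and the colour scale ending at -3 and 3. The clock repressors stand at 2.07 at ZT2 and at -0.50, -0.62 and -1.28 later, while the cholesterol genes lie between -2.95 and -2.34 throughout.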

How the data were processed

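The deposited file holds read counts per gene for 32 mouse liver libraries, made by the authors from unstranded libraries of poly-T selected RNA, per the labels' protocols. HISAT2, featureCounts and DESeq2 with GRCm38 (mm10) are named per the submitters' processing notes; for their versions and options the sources used here give nothing. Reads of overlapping or antisense genes cannot be told apart in such libraries. Members and gene lists were chosen with earlier results of these data known.

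Of 54532 genes in the table, 17853 passed edgeR's filterByExpr over the 8 groups of diet and time. The counts of all 32 libraries, scaled by TMM, were fitted in edgeR 4.0.16 (R 4.3.3) by the quasi-likelihood test with terms for group and sex (23 residual degrees of freedom), and p-values were adjusted by Benjamini-Hochberg over the 17853 genes and called below 0.05. Log2 changes use a prior count of 2. Standard errors are residual errors of each contrast when log2 CPM was fitted linearly in limma 3.58.1, which is another estimator. Levels are TMM-scaled CPM, and spreads use log2(CPM + 0.5). Total counts of 29.5 M to 54.6 M per library set the counting precision. Alternatives were other scalings, DESeq2 1.42.0, no filter, other sex terms, a replicate block, the ZT2 libraries alone and leaving out each ZT2 library; models without the cdHFD females or males, with ribosomal RNA or GC trend as a covariate, and sex by diet were chosen after the data were seen.

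Genes were named by rule: the 10 largest changes each way at ZT2 with no overlap between diets and at least 1 CPM, the 10 largest departures of ZT2 each way with the same sign against each other time, all clock genes (1 counted among them is not reported here by name), and from each other list the members that departed and up to 4 with the largest change at ZT2. Gene identifiers were matched to GENCODE M21 (99.9%), and promoter sequences are RefSeq's for GRCm38.p6.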

Additional observations from a re-analysis of the deposited data

Results flagged for a closer look

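In groups of 4 livers, the gap between the highest or lowest value and its neighbour was set against the group's range. The test covered the genes with the largest changes and departures and all clock genes, in both ZT2 groups. It flagged 8 gene and group pairs. It flags about 1 in 20 groups by chance, so with this many pairs several flags are to be awaited from chance alone. In chow at ZT2 these were Vmn2r3 in replicate 3 (0.0359 CPM), Mup10 in replicate 4 (1054 CPM), Clic3 in replicate 4 (6.69 CPM) and Tef in replicate 4 (18.4 CPM). In cdHFD at ZT2 they were Mup19 (0.199 CPM), Mup10 (0.421 CPM) and Bhlhe40 (33.7 CPM) in replicate 2 and C1rb in replicate 3 (4.33 CPM).

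The diet effect at ZT2 differed from the mean of the other 3 times in edgeR's quasi-likelihood test for these named genes, on the log2 scale. Among clock genes it was higher by 7.23 for Dbp, 4.08 for Ciart, 3.57 for Nr1d1, 3.54 for Per3, 2.96 for Bhlhe41, 2.88 for Nr1d2, 2.53 for Per1, 2.45 for Tef, 2.23 for Wee1, 1.99 for Usp2, 1.27 for Bhlhe40 and 0.62 for Cry2. Among other genes it was higher by 5.09 for Ppp1r3g, 3.94 for C1rb, 2.71 for Abcc12 and 2.64 for Lpin1. The difference was -2.90 for Gm37138, -2.87 for Fam50b, -2.86 for Clic3, -2.81 for Tubb2b, -2.79 for CT010467.1, -2.78 for Paxx, -2.63 for Gm23935, -2.62 for Loxl4, -2.61 for Rn7sk and -2.61 for Slc34a2.

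The diet effect at ZT2 differed between females and males, tested as an interaction, by 5.12 for Dbp, 3.4 for Per3, 2.86 for Tef, -1.94 for Nfil3 and -3.25 for Arntl.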

How the results depend on the processing

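The clock spread in cdHFD at ZT2 kept its size under every alternative run, with a median SD of 0.884 to 1.339 when 1 liver was left out. Genes called higher and lower by diet at ZT2 were 8627 and 1326 with total counts alone, 2205 and 1887 with the 8 ZT2 libraries alone, 2417 and 2113 without both cdHFD males, 1563 and 1402 with ribosomal RNA as a covariate, and 3168 to 4108 and 3020 to 4119 with 1 liver left out. Chow and cdHFD libraries of the same number had correlations of 0.034, -0.302, -0.096 and -0.473 in their deviations from group and sex. From group means alone these were 0.246, 0.045, 0.176 and -0.256. Libraries of different numbers, for group and sex, ran from -0.437 to 0.629. With 4 libraries per diet these values cannot show whether replicate numbers pair the libraries. The replicate block gave 3820 and 3649 in all libraries and 1712 and 1301 in those of ZT2 alone, 0 lower genes for ZT2 within cdHFD and 5 upward genes past all 3 times.

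Upward and downward departures of ZT2 were 205 upward with total counts alone, 747 and 851 with DESeq2, 1035 and 1101 with no filter, 166 and 162 without both cdHFD males, 27 and 19 with ribosomal RNA as a covariate, 233 and 172 with the GC trend as a covariate, and 89 to 1472 and 69 to 1357 with 1 liver left out. Within chow, ZT2 gave 151 higher and 96 lower genes with ribosomal RNA as a covariate, and 805 to 2838 and 486 to 2466 with 1 liver left out. The lowest were without replicate 2, and replicate 3 left out gave 1082 and 645. Within cdHFD the counts were 14 and 11 with DESeq2, 150 and 108 with no filter, 10 and 5 without both females, 26 and 23 without both males, 0 to 9 and 0 to 11 with 1 liver left out, 0 lower with total counts alone, 1 higher with sex within each diet, 1 higher with ribosomal RNA and 3 higher with the GC trend as a covariate. Genes past all 3 other times were 33 and 16 with DESeq2, 166 and 89 with no filter, 1 and 0 without both females, 28 and 19 without both males, 1 downward with ribosomal RNA as a covariate, and 4 to 34 and 0 to 20 with 1 liver left out. The cause of these shifts was not tested.

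Of 3897 values of the diet effect of named genes under the alternatives 39 changed sign, and of 1059 values of the departure 5 did. For the diet effect these were, without both cdHFD females, Ciart (-0.62), Per3 (-0.46), Tef (-0.63), Usp2 (-0.38), Tubb4b (0.19) and Abcc3 (0.03), and, without both males, Tubb2b (-0.16), Rora (-0.11), Per2 (0.37), Isg15 (0.03) and Tubb2a (-0.53). With ribosomal RNA as a covariate they were Tubb2b (-0.01), Rora (-0.68), Per2 (1.47), Pdk4 (-1.05), Hsf1 (0.05), Isg15 (0.20) and Tubb2a (-0.43), and with the GC trend Rora (-0.18) and Isg15 (0.10). With total counts alone they were Clock (0.08), Per2 (0.20), Cry2 (0.05), Abcc3 (0.44), Stip1 (0.13), Isg15 (0.41), Irf9 (0.17) and Tubb4b (0.32), and with sex within each diet Pdk4 (-0.01) and Isg15 (0.07). With 1 liver left out they were Rora (-0.14 to 0.18), Per2 (-1.05 to 0.19), Abcc3 (-0.14 to 0.01), Isg15 (-0.32 to 0.15) and Tubb2a (-0.03 to 0.64), each given as the range. For the departure they included Rora (-0.10) with ribosomal RNA as a covariate, Per2 (-0.54) and Cry1 (0.11) without both females, and Per2 with 1 liver left out (-0.26, without cdHFD replicate 4, to 0.96).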

Other observations

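Gapdh, a glycolytic enzyme often taken as a stable reference, was at 32.5, 622, 332 and 10.6 CPM in chow replicates 1 to 4 of ZT2 and at 11.1, 11.4, 155 and 482 CPM in cdHFD. It differed as widely within each diet as between them. This gene was chosen after its values were seen, and many Gapdh pseudogenes exist in the mouse genome, so the share of reads given to it is uncertain.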
